A study of Mus musculus with 34 samples.

Results

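The 39 genes described here are interferon-response genes, chosen by name from the 48709 genes of the count table as genes known to be induced by type I or type II interferon. All 39 passed the filter on low counts, so that all were tested among 17616 genes. Bulk RNA-seq was done on pancreatic islets of mice, and the design text of the series asks how islets respond to the loss of part of their beta cells. All 9 groups carried the RIP-DTR HTZ genotype, a transgene that places the diphtheria toxin (DT) receptor under the rat insulin promoter, so that DT acts on the insulin-producing cells and the untreated mice carried the receptor too. Untreated islets labelled with neither time nor diet are called CTRL (n = 3), and islets taken 5 or 30 days after DT, labelled DPA, are called DT 5 DPA (n = 4) and DT 30 DPA (n = 4). At 10 weeks there were, on diets given as SD and HFD, untreated islets (CTRL SD, n = 3; CTRL HFD, n = 4), islets after DT (DT SD, n = 4; DT HFD, n = 3) and islets after 75 mg/kg streptozotocin, a toxin taken up by beta cells (STZ SD, n = 4; STZ HFD, n = 4). The labels give no age or sex, and they do not say whether islets of several animals were pooled.

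Interferons are secreted proteins that cells release after sensing foreign or misplaced nucleic acid (type I) or that activated T and NK cells release (type II, interferon gamma). Binding to their receptors activates JAK kinases and STAT proteins, which switch on genes through the interferon-stimulated response element (ISRE) or the gamma-activated sequence (GAS). The products restrict viruses and intracellular microbes and raise antigen presentation. In islets, interferon-induced genes are best known from type 1 diabetes.

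Total counts per library lay between 11083117 and 18918348, and a member had between 5 and 7389 counts in a library, with 2 members (Oas3 and Mx2) below 10 counts in at least 1 library. Beta-cell transcripts were abundant in every group. Several libraries also held transcripts of intestinal enterocytes, at a summed level above 500 CPM (counts-per-million, relative to the scaled library size) in DT 5 DPA replicates 1, 2 and 4, CTRL replicate 2, DT 30 DPA replicate 2, STZ SD replicates 1 and 4 and DT HFD replicate 1, and the counts called in comparisons that touch them are given without them as well.

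The members were at their highest 5 days after DT. Of 39 members, 39 had their highest group mean in DT 5 DPA, as had 20.2% of all genes tested, and for 24 members each of the 4 DT 5 DPA libraries was above all 29 other libraries, as was the case for 4.06% of all genes. Against CTRL, 23 of 39 members were called higher and 0 lower at an adjusted p below 0.05 (edgeR's quasi-likelihood F test with Benjamini-Hochberg adjustment over all genes), while 3.8% of all genes were called higher and 5.39% in either direction. All 39 estimates lay above 0 (37 of 39 without CTRL replicate 3, where Ddx58 was at -0.16 and Ifi35 at -0.0018), with a median log2 fold change of 1.41 beside -0.05 over all genes, and for 30 members the 2 groups did not overlap, as for 9.64% of all genes. The 9 members whose groups overlapped were Irf1, Irf9, Ddx58, Oasl1, Ifi35, Trim30a, Psmb8, Psmb9 and Tap1. In RNA from whole islets, more cells of a type and more RNA per cell cannot be told apart.

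**Figure D1:**
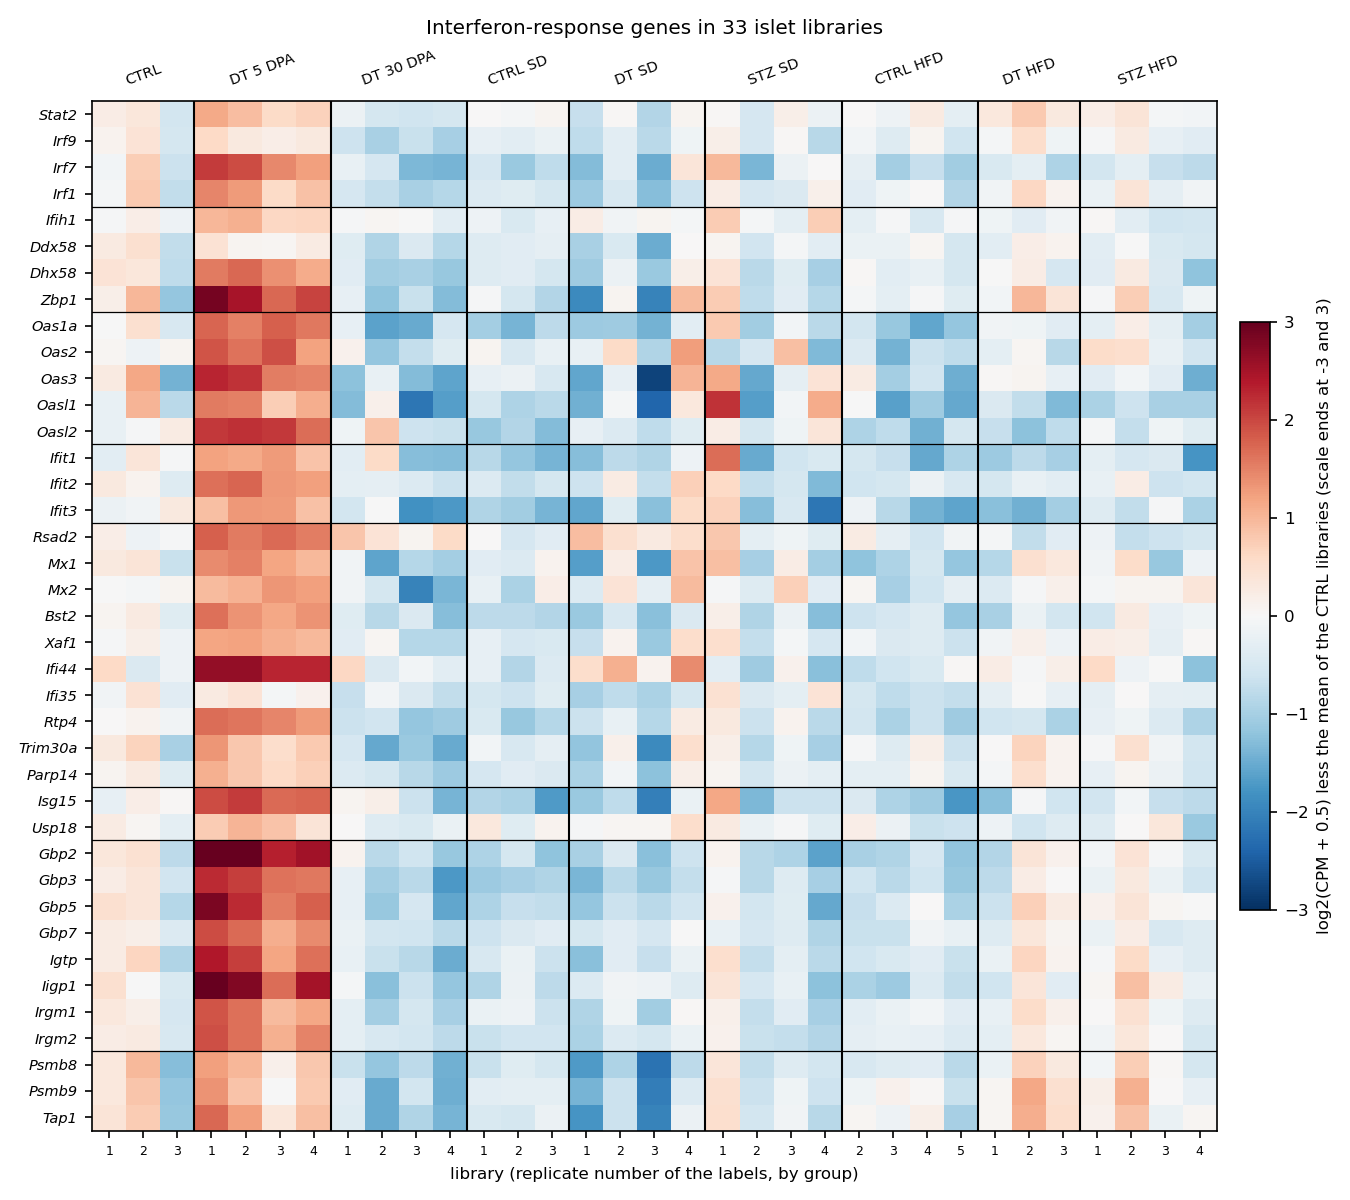
Each row is a member and each column a library, grouped by label and, in rows, by role. Colour gives log2(CPM + 0.5) less the mean of the 3 CTRL libraries. The 4 DT 5 DPA columns stand out in red in nearly all rows, most strongly in Gbp2, Iigp1, Ifi44 and Zbp1, and CTRL replicate 3 is below the other CTRL libraries in most rows.

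The promoters of the members with the smallest adjusted p in this comparison are shown here because these genes rose together; Iigp1, which is also among them, is left out. Each is the RefSeq sequence of GRCm38.p6 from 250 bases before to 50 after the annotated start, written 5′ to 3′ on the gene's strand, and capitals mark every match to the ISRE core (GAAA, then NN, then GAAA) or to the GAS TTCNNNGAA on either strand. Gbp2 lies on the plus strand with its promoter at chr3:142620413-142620712, Gbp7 on the plus strand at chr3:142530086-142530385, Oasl2 on the plus strand at chr5:114896684-114896983, and Rsad2 on the minus strand at chr12:26456403-26456702.
Gbp2: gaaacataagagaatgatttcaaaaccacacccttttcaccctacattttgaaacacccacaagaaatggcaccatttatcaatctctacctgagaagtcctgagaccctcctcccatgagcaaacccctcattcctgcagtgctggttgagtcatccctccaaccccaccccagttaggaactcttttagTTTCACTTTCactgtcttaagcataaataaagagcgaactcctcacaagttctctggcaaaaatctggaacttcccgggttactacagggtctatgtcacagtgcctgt
Gbp7: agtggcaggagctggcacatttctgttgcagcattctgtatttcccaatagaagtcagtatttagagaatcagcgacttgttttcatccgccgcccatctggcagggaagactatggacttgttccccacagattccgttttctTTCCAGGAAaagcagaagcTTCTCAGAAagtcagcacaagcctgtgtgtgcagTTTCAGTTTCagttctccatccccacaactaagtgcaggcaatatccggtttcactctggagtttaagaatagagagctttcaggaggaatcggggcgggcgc
Rsad2: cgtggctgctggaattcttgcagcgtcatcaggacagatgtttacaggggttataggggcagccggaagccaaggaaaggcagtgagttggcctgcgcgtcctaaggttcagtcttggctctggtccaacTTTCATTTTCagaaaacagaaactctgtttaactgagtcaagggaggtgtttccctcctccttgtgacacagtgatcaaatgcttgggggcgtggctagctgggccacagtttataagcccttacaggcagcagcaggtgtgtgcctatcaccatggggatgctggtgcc
Oasl2: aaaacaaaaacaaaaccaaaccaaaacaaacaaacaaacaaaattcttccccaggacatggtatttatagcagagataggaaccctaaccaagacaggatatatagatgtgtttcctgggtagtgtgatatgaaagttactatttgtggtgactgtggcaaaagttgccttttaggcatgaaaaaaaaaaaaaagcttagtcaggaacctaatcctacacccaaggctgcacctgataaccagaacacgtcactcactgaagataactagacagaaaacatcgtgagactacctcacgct

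In the Gbp2 window the ISRE core began 59 bases before the start, read on the opposite strand as the capitals TTTCACTTTC. Gbp7 held an ISRE core 53 bases before the start and 2 GAS matches, at 106 and 87 bases before it. Rsad2 had an ISRE core 120 bases before the start. In the Oasl2 window neither motif was found, which says only that these letters are not in this window. The promoter table matched 30 of the 39 members by symbol, with 35 promoters. Of these 35, 19 (54.3%) held the ISRE core, compared with 3.19% of the 15985 promoters of genes tested, and 10 (28.6%) held the GAS, compared with 7.05%. Both motifs were present in 6 member promoters (17.1%, and 0.413% of the promoters of genes tested). Of the GTPase promoters 7 of 8 held the core and 4 of 8 the GAS, and of the sensor promoters 2 of 2 held the core and 0 the GAS. The 8 GTPase promoters are not 8 genes, since Gbp3 has more than 1 among them and Iigp1 has none. Of the 3 promoters of the antigen-processing genes, 0 held the ISRE core and 1 held the GAS. A match describes the sequence and is not evidence of binding.

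All interferon-induced GTPases among the members, 8 of 8, were called higher 5 days after DT, with estimates between 1.42 and 2.83 on the log2 scale. These proteins are guanylate-binding proteins (Gbp) and immunity-related GTPases (Irg, Igtp and Iigp1). Of them, the Gbp proteins and Iigp1 can assemble on and damage the vacuoles of intracellular microbes. Gbp2 (chr3:142620602-142638008, plus strand, GENCODE M21 on GRCm38) measured 58.2, 62.7 and 26.2 CPM in the CTRL libraries and 485, 414, 234 and 266 CPM in the DT 5 DPA libraries, in order of replicate. The lowest DT 5 DPA library was thus well above the highest CTRL library, and the log2 fold change was 2.83 ± 0.41 (SE; adjusted p = 6.48e-05, edgeR). Iigp1 (chr18:60376027-60392634, plus strand) measured 50.2, 35.7 and 26.2 CPM in CTRL and 319, 251, 117 and 205 CPM in DT 5 DPA, a log2 fold change of 2.58 ± 0.39 (adjusted p = 0.00011, edgeR). Gbp7 (chr3:142530342-142550149, plus strand) measured 64.3, 62.1 and 40.6 CPM in CTRL and 213, 179, 116 and 147 CPM in DT 5 DPA, a log2 fold change of 1.56 ± 0.23 (adjusted p = 9.58e-05, edgeR). In these 3 genes replicate 3 was the lowest DT 5 DPA library and replicate 1 the highest, without overlap with CTRL. The other GTPases had log2 fold changes of 2.09 (Gbp5), 1.87 (Gbp3), 1.77 (Igtp), 1.54 (Irgm2) and 1.42 (Irgm1). With only CTRL and DT 5 DPA in the fit, the calls of Gbp5, Irgm1 and Igtp ended (adjusted p = 0.0715, 0.0716 and 0.1135, edgeR). Gbp2, Gbp3, Gbp5 and Gbp7 are neighbours on chromosome 3, and Igtp and Irgm2 overlap on the same strand of chromosome 11, so that reads of these related genes could be split between them by the counting.

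Of the oligoadenylate synthetases, which make the messenger that activates RNase L, and their like, 3 of 5 were called higher (Oas1a, Oas2 and Oasl2). Oasl2 (chr5:114896936-114912234, plus strand), an oligoadenylate synthetase-like protein, measured 21.1, 23.9 and 29.3 CPM in CTRL and 108, 113, 108 and 80.0 CPM in DT 5 DPA. The 3 highest DT 5 DPA libraries agreed closely and the 4th was lower, still above all CTRL libraries, with a log2 fold change of 2.05 ± 0.30 (adjusted p = 6.94e-05, edgeR). Oas1a had a log2 fold change of 1.65 ± 0.41 and Oas2 of 1.74 ± 0.49 (adjusted p = 0.0144 and 0.0338, edgeR). Oas3 and Oasl1 were not called, at 1.63 ± 0.73 and 1.09 ± 0.71 (adjusted p = 0.21 and 0.425, edgeR). Their CTRL libraries spread widely, with Oas3 at 7.00, 13.5 and 1.84 CPM and Oasl1 at 6.6, 16.3 and 4.24 CPM. The call of Oas1a ended without CTRL replicate 1 or 3 (adjusted p = 0.0675 and 0.0861, edgeR), and that of Oas2 without any 1 CTRL library or DT 5 DPA replicate 1, 2 or 3 (adjusted p between 0.0536 and 0.102, edgeR).

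In the IFIT family, whose proteins bind foreign RNA ends and hinder translation, 1 of 3 was called. Ifit2 (chr19:34550694-34576419, plus strand) measured 24.0, 21.0 and 14.7 CPM in CTRL and 62.5, 66.9, 49.2 and 46.7 CPM in DT 5 DPA, a log2 fold change of 1.5 ± 0.34 (adjusted p = 0.00732, edgeR). Without CTRL replicate 3 the call of Ifit2 ended (adjusted p = 0.0561, edgeR). The 2 neighbours of Ifit2 on chromosome 19 had similar estimates with larger errors and did not pass, Ifit1 at 1.11 ± 0.53 and Ifit3 at 1.11 ± 0.54 (adjusted p = 0.248 and 0.259, edgeR). In both, all DT 5 DPA libraries were nevertheless above all CTRL libraries, Ifit3 for example at 26.7, 28 and 37.0 CPM in CTRL and 56.8, 75.8, 74.4 and 56.1 CPM in DT 5 DPA.

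Of 10 other antiviral and induced proteins, 5 were called higher (Rsad2, Ifi44, Rtp4, Bst2 and Xaf1). Rsad2 (chr12:26442746-26456452, minus strand), viperin, which makes a chain-terminating nucleotide, measured 15.0, 11.6 and 12.8 CPM in CTRL and 46.5, 39.5, 43.7 and 38.8 CPM in DT 5 DPA. Both groups were tight and far apart, with a log2 fold change of 1.68 ± 0.26 (adjusted p = 0.000143, edgeR). Ifi44 (chr3:151730922-151749960, minus strand) measured 12.3, 5.69 and 7.00 CPM in CTRL and 52.1, 51.7, 40.7 and 40.4 CPM in DT 5 DPA, the largest change of this role at 2.47 ± 0.41 (adjusted p = 0.000318, edgeR). Rtp4 rose by 1.54, Bst2 (tetherin, which holds budding virus at the membrane) by 1.37 and Xaf1 by 1.13 on the log2 scale. The call of Xaf1 ended when CTRL replicate 1, CTRL replicate 3, DT 5 DPA replicate 1 or DT 5 DPA replicate 2 was left out (adjusted p between 0.0541 and 0.0986, edgeR). Mx1 and Mx2 belong to a family of dynamin-like GTPases that block viral replication, and GENCODE M21 lists Mx2 as a polymorphic pseudogene. Mx1 and Mx2 did not pass at 1.26 ± 0.58 and 1.25 ± 0.45 (adjusted p = 0.225 and 0.111, edgeR), although neither overlapped with CTRL. Parp14 (0.79), Trim30a (0.75) and Ifi35 (0.16) were not called either. Isg15 (chr4:156199424-156200818, minus strand), the ubiquitin-like protein conjugated to other proteins, measured 13.4, 18.3 and 16.2 CPM in CTRL and 63.4, 69.0, 52.5 and 54.4 CPM in DT 5 DPA, a log2 fold change of 1.90 ± 0.50 (adjusted p = 0.0212, edgeR). Usp18, the protease that removes it, had 0.77 ± 0.27 and was not called (adjusted p = 0.0949, edgeR). The call of Isg15 ended without CTRL replicate 1 or 3 (adjusted p = 0.101 and 0.0719, edgeR).

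Among the cytosolic sensors, 3 of 4 were called higher. Ifih1 (chr2:62595798-62646255, minus strand; MDA5, a sensor of long double-stranded RNA) measured 29.5, 34.9 and 27.3 CPM in CTRL and 61.2, 64.5, 47.1 and 47.8 CPM in DT 5 DPA, a log2 fold change of 0.85 ± 0.21 (adjusted p = 0.0119, edgeR). Zbp1 (chr2:173206612-173218923, minus strand), a sensor of Z-form nucleic acid that can start necroptosis, measured 19.2, 34.8 and 7.31 CPM in CTRL and 128, 97.1, 57.7 and 71.6 CPM in DT 5 DPA, the largest change of the sensors at 2.12 ± 0.60 (adjusted p = 0.0341, edgeR). Its CTRL libraries differed severalfold among themselves and remained below DT 5 DPA. Dhx58 (LGP2) had 1.41 ± 0.38 (adjusted p = 0.0262, edgeR). These 3 calls rested on single libraries: each ended without CTRL replicate 3, those of Ifih1 and Zbp1 also without CTRL replicate 1, and those of Zbp1 and Dhx58 without DT 5 DPA replicate 1 or 2. The adjusted p was then 0.0591 to 0.0674 for Ifih1, 0.0613 to 0.15 for Zbp1 and 0.0564 to 0.141 for Dhx58 (edgeR). Ddx58 (RIG-I, a sensor of RNA ends) overlapped between the groups and had 0.12 ± 0.26 (adjusted p = 0.855, edgeR).

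Of the 4 signalling members, Irf7 and Stat2 were called. Irf7 (chr7:141262706-141266481, minus strand), the factor that amplifies type I interferon production, measured 28.2, 50.5 and 19.0 CPM in CTRL and 131, 118, 82.7 and 70.7 CPM in DT 5 DPA, a log2 fold change of 1.63 ± 0.46 (adjusted p = 0.0338, edgeR). Stat2 and Irf9, partners in the factor that binds the ISRE, had 0.81 ± 0.23 and 0.31 ± 0.24 (adjusted p = 0.0357 and 0.501, edgeR). The calls of Irf7 and Stat2 ended when CTRL replicate 1, CTRL replicate 3, DT 5 DPA replicate 1 or DT 5 DPA replicate 2 was left out (adjusted p between 0.0714 and 0.154 for Irf7 and between 0.0661 and 0.199 for Stat2, edgeR). Irf1, a factor induced chiefly by interferon gamma, came close to the threshold at 0.96 ± 0.29 (adjusted p = 0.053, edgeR). The antigen-processing genes Psmb8 and Psmb9, subunits of the immunoproteasome, and Tap1, the peptide transporter, gave 0 of 3 calls, with estimates of 0.59, 0.61 and 0.94. Psmb8 measured 179, 282 and 59.5 CPM in CTRL and 339, 290.0, 159.6 and 255 CPM in DT 5 DPA, and CTRL replicate 2 was as high as the DT 5 DPA libraries.

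**Figure D2:**
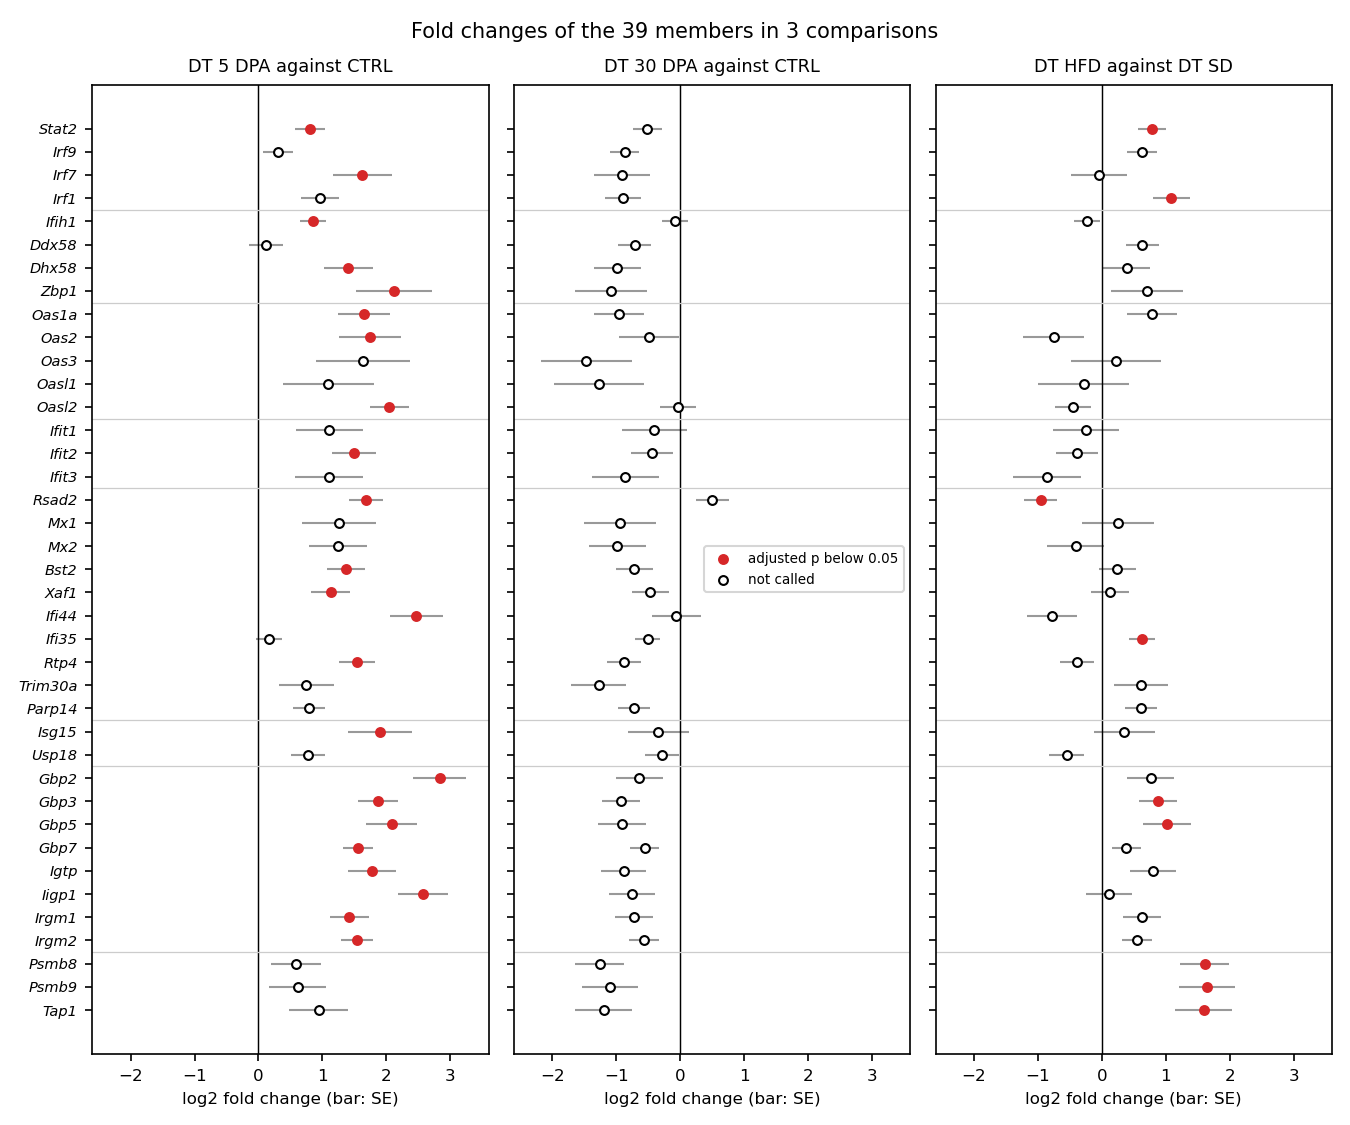
Points give the log2 fold change of each member and bars its SE in 3 comparisons, with filled points for an adjusted p below 0.05. All 39 points lie above 0 at DT 5 DPA against CTRL, 38 of 39 lie below 0 at DT 30 DPA against CTRL with 0 called, and the 3 antigen-processing genes at the bottom are called between DT HFD and DT SD.

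Levels can be compared between genes only per length, and by the authors' TPM the order of the members changed at 5 days. Gbp2 had a mean of 46.2 ± 20.1 TPM (SD, n = 3) in CTRL, rank 7 of the 39, and 322 ± 128 TPM (SD, n = 4) in DT 5 DPA, rank 1. Psmb8 (152 ± 105 TPM, SD, n = 3) and Bst2 (115 ± 29.9 TPM, SD, n = 3) ranked 1 and 2 in CTRL. In DT 5 DPA Bst2 (287 ± 59.4 TPM, SD, n = 4) was at rank 2 and Psmb8 (221 ± 76.4 TPM, SD, n = 4) at rank 3, and the libraries of these 3 genes overlapped in range (188 to 459.6 TPM in Gbp2, 216 to 361 TPM in Bst2 and 118 to 295 TPM in Psmb8). Mx2 was at rank 39 in both groups.

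The 4 DT 5 DPA libraries differed among themselves by a median of 1.55 times (highest over lowest CPM of a member), from 1.18 times in Xaf1 to 2.73 times in Iigp1. Replicate 1 was the highest of the 4 in 25 members and replicate 3 the lowest in 22, replicate 4 the lowest in 15. Replicate 3 was also the library with the fewest enterocyte transcripts (26.1 CPM, beside 1442 to 3628 CPM in the other 3) and the fewest T and NK cell transcripts (43.5 CPM, beside 132 to 235 CPM). Its mean over the 39 members was 5.84 log2 CPM, above the highest CTRL library at 5.05. Without the libraries above 500 CPM of enterocyte transcripts, which leaves 1 DT 5 DPA and 2 CTRL libraries with the spread taken from all groups, 6 members were called (Oasl2, Gbp2, Rsad2, Gbp3, Irgm2 and Oas1a; 1.78% of all genes), and the median log2 fold change was 1.35. Without CTRL replicate 3, the lowest CTRL library in 31 of 39 members, 13 were called, beside 3.84% of all genes. These were 8 of 8 GTPases, 4 of 10 other antiviral proteins and 1 of 5 oligoadenylate synthetases, and 0 of the sensors, the signalling members, the IFIT family, Isg15 and Usp18, and the antigen-processing genes. Without CTRL replicate 1, 15 were called, where the share of all genes is not given.

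Marker genes of other cells rose in the same libraries. The 11 macrophage and monocyte markers summed to 4999 to 7402 CPM in DT 5 DPA and to 698 to 1763 CPM in CTRL, with 10 of 11 called higher and all 11 detected in every library. Of the neutrophil markers 7 of 9 tested were called higher (64.2 to 244 CPM summed, beside 5.16 to 20.1 CPM in CTRL, where Camp was at 0 in all 3 libraries), and of the fibroblast markers 4 of 7 (3084 to 4272 CPM, beside 713 to 1248 CPM). For T and NK cell markers 0 of 10 were called (43.5 to 235 CPM, beside 44.0 to 660 CPM), and for B cell markers 0 of 10. The part of these cells in the members' rise was not tested.

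**Figure D3:**
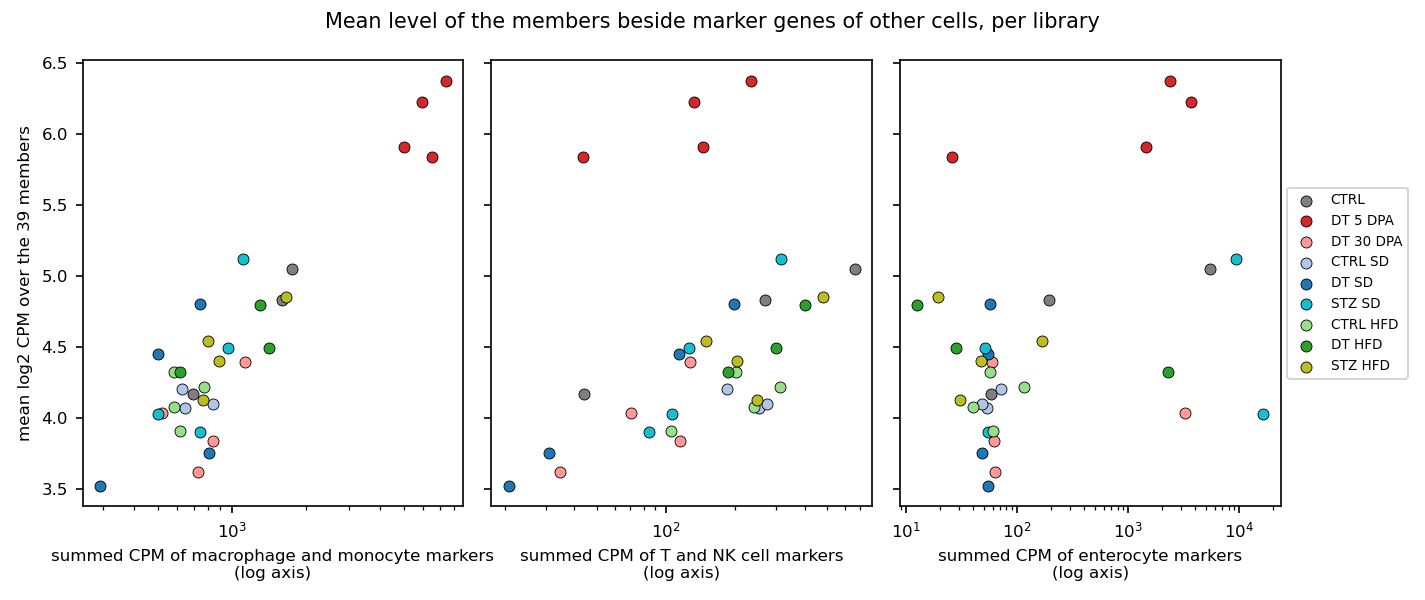
Each point is a library, with the mean log2 CPM over the 39 members on the vertical axis and the summed CPM of macrophage, T and NK cell or enterocyte markers on the horizontal log axes. The 4 DT 5 DPA libraries lie apart at the top, at 4999 to 7402 CPM of macrophage markers, while in T and NK cell and enterocyte markers they lie within the range of the other libraries.

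The interferons themselves were hardly detected. Of 21 ligand genes only Ifng, interferon gamma, passed the filter. The 14 interferon alpha genes gave 10 reads over all 33 libraries, in 5 libraries, and Ifnb1, interferon beta, was read in 3 libraries, with 6 reads in DT 5 DPA. Where a count is 0, 3 counts remain possible, which is 0.145 to 0.484 CPM depending on the library and covers counting error only. Ifng had 18, 14 and 5 counts in CTRL and 55, 35, 18 and 36 counts in DT 5 DPA, and the difference did not pass (log2 fold change 1.71 ± 0.90; adjusted p = 0.302, edgeR). Of the 6 receptor genes 1 was called higher, Ifnar2 of the type I receptor, by 0.74 ± 0.18 (adjusted p = 0.0112, edgeR).

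Of 12 genes that signal downstream of the receptors or inhibit them, 1 was called higher at 5 days, the inhibitor Socs3, at 1.64 ± 0.35 (adjusted p = 0.00415, edgeR). Of 15 tested genes of sensing upstream of interferon, 3 were called higher, namely the endotoxin receptor Tlr4 by 1.45, Mb21d1 (cGAS, the cytosolic DNA sensor) by 1.54 and the adaptor Myd88 by 0.84. A list of 59 further interferon-induced genes gave 15 higher and 0 lower, with a median log2 fold change of 0.80. The genes of that list with the smallest adjusted p were Ifitm3 at 2.08 ± 0.26 and Ifitm2 at 1.49 ± 0.21, membrane proteins that block viral entry, and Gbp6 at 2.89 ± 0.48.

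Between 5 and 30 days after DT the members fell. Between DT 5 DPA and DT 30 DPA, 39 of 39 members were called lower, beside 13.9% of all genes (30.5% in either direction), with a median log2 fold change of -2.11 and 0.02 over all genes. In all 39 the groups did not overlap, as in 16.5% of all genes. These comparisons share the DT 5 DPA libraries with those above, which are the libraries in which the members were high. Gbp2 measured 49.4, 25.9, 30.1 and 20.4 CPM in DT 30 DPA (-3.48 ± 0.38 against DT 5 DPA; adjusted p = 4.47e-07, edgeR), and Iigp1 34.9, 14.9, 22.7 and 15.9 CPM (-3.33 ± 0.36; adjusted p = 4.47e-07, edgeR). Each of these libraries was below every DT 5 DPA library by more than 2-fold. Gbp7 measured 47.7, 37.2, 35.9 and 30.7 CPM, with the smallest adjusted p of this comparison (1.92e-07, edgeR) at -2.11 ± 0.22. Gbp3 fell by 2.79 and Rtp4 by 2.41 on the log2 scale.

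In the other roles the falls were as follows. Zbp1 measured 14.3, 7.16, 10.5 and 6.63 CPM, a change of -3.20 ± 0.56, and Dhx58 8.39, 4.98, 5.28 and 4.59 CPM, a change of -2.39 ± 0.36. Irf7 was at 25.7, 21.0, 11.4 and 11.2 CPM (-2.53 ± 0.43) and Irf1 at 60.3, 52.6, 43.5 and 47.3 CPM (-1.86 ± 0.27). Within Irf7, replicates 1 and 2 were about double replicates 3 and 4. Oas3, the largest fall of its family, was at 2.19, 4.92, 2.03 and 1.6 CPM (-3.10 ± 0.70), Oasl2 at 22.3, 43.8, 15.6 and 15.4 CPM (-2.07 ± 0.27), Ifit2 at 15.7, 16.2, 14.5 and 12.3 CPM (-1.94 ± 0.31) and Ifit3 at 20.6, 29.8, 8.19 and 8.74 CPM (-1.97 ± 0.50). Replicate 2, a library with enterocyte transcripts, was the highest of its group in these 4 genes. Ifi44 was at 12.4, 5.75, 7.45 and 6.26 CPM (-2.54 ± 0.37), Isg15 at 16.8, 18, 9.95 and 5.68 CPM (-2.24 ± 0.46), Psmb8 at 90.1, 63.9, 83.4 and 52.8 CPM (-1.85 ± 0.37) and Tap1 at 58.1, 26.4, 40.3 and 28.4 CPM (-2.13 ± 0.43). The smallest fall was that of Ifi35, at -0.67 ± 0.19 (adjusted p = 0.00925, edgeR). Without the libraries that held enterocyte transcripts, which leaves 1 DT 5 DPA library, 26 members were called lower, beside 4.93% of all genes in either direction, with a median log2 fold change of -1.88. Among the 26 were 8 of 8 GTPases and 3 of 3 of the IFIT family, but 1 of 4 sensors and 0 of 3 antigen-processing genes. Ifit1 was not called without DT 30 DPA replicate 3 or 4 (adjusted p = 0.0659 and 0.0732, edgeR).

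The pathway moved with the members over this interval. Called lower were 5 of 6 receptors, with the smallest adjusted p in Ifnar2 (-1.17), Ifnar1 (-0.92) and Ifngr1 (-1.12), and 9 of 12 signalling genes, among them the inhibitors Socs3 (-1.88) and Socs1 (-2.47). Of the sensing genes 12 of 15 were lower, of the further induced genes 51 of 59, and Ifng fell too (-2.77 ± 0.86; adjusted p = 0.017, edgeR). The macrophage and monocyte markers, 11 of 11 called lower, summed to 521 to 1132 CPM in DT 30 DPA, and the fibroblast markers, 7 of 7 called lower, to 882 to 1129 CPM. Their part in the fall was not tested.

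Against CTRL, 0 of 39 members were called at 30 days in either direction, beside 0.233% of all genes, while 24 members had an unadjusted p below 0.05 and the smallest adjusted p was 0.0526 (Irf9, edgeR). The estimates lay below 0 in 38 of 39 members, with a median of -0.76 beside -0.02 over all genes, and the exception was Rsad2 at 0.51 ± 0.25. In 5 members the DT 30 DPA libraries were all below the CTRL libraries, as in 4.92% of all genes. The count rested on 1 control library. Without CTRL replicate 3, 20 members were called lower, among them 6 of 8 GTPases, 3 of 3 antigen-processing genes and 3 of 4 signalling members, but 23.7% of all genes were then called too. The DESeq2 Wald test called 7 lower, beside 10.5% of all genes. Without the libraries that held enterocyte transcripts 0 were called, beside 0% of all genes, with a median of -0.53. The estimates of Ifi44, Ifih1 and Oasl2 were near 0 and turned sign when single libraries were left out.

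At 10 weeks no toxin effect on a member passed within either diet. DT SD against CTRL SD gave 0 of 39 calls (0.0341% of all genes; 4 members at an unadjusted p below 0.05; median log2 fold change 0.11), and STZ SD against CTRL SD gave 0 (0.00568%; 8 members; 0.29). DT HFD against CTRL HFD gave 0 (0.00568%; 7 members; 0.44), STZ HFD against CTRL HFD 0 (0.471%; 7 members; 0.39), and diet alone, CTRL HFD against CTRL SD, 0 (0% of all genes; 0 members; 0.08). By edgeR's quasi-likelihood test these were the counts, and the DESeq2 Wald test called 1 member each in DT SD, STZ SD and STZ HFD against their controls. The share of all genes is not given for that test. Without the libraries that held enterocyte transcripts 1 member was called higher in DT HFD against CTRL HFD and 0 in the other 4 comparisons. For these counts the share of all genes is not given either. The mean over the 39 members was 4.12 ± 0.07 log2 CPM in CTRL SD (SD, n = 3) and 4.13 ± 0.60 in DT SD (SD, n = 4), 4.38 ± 0.55 in STZ SD (SD, n = 4), 4.13 ± 0.18 in CTRL HFD (SD, n = 4), 4.53 ± 0.24 in DT HFD (SD, n = 3) and 4.48 ± 0.30 in STZ HFD (SD, n = 4), beside 6.09 ± 0.26 in DT 5 DPA (SD, n = 4).

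The spread within the treated SD groups was wide, and single libraries stood high in it. DT SD replicate 4 was the highest of its group in 33 of 39 members and STZ SD replicate 1 in 34 of 39. Ifit3 measured 9.91, 23.4, 12.4 and 45.5 CPM in DT SD, 49.1, 12.1, 21.7 and 6.36 CPM in STZ SD and 15.9, 14.3 and 11.1 CPM in CTRL SD. Replicate 4 of the first and replicate 1 of the second were thus close to DT 5 DPA. Oasl1 in STZ SD measured 36.6, 2.11, 7.27 and 17.3 CPM and Ifit1 82.7, 8.64, 16.6 and 18.6 CPM, so that replicate 1 exceeded all DT 5 DPA libraries in both genes. Gbp2, in contrast, measured 49.3, 25.4, 23.7 and 14.8 CPM there and 23.0, 33.9, 18.9 and 29.8 CPM in DT SD, far below DT 5 DPA throughout. STZ SD replicate 1 held 9379 CPM of enterocyte transcripts and 318 CPM of T and NK cell markers, the latter the most in its group. STZ SD replicate 4 held more enterocyte transcripts, 16379 CPM, and was the lowest of its group in 22 of 39 members. DT SD replicate 4 held 57.0 CPM of enterocyte transcripts and 197 CPM of T and NK cell markers, the latter again the most in its group. The part of these transcripts was not tested.

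**Figure D4:**
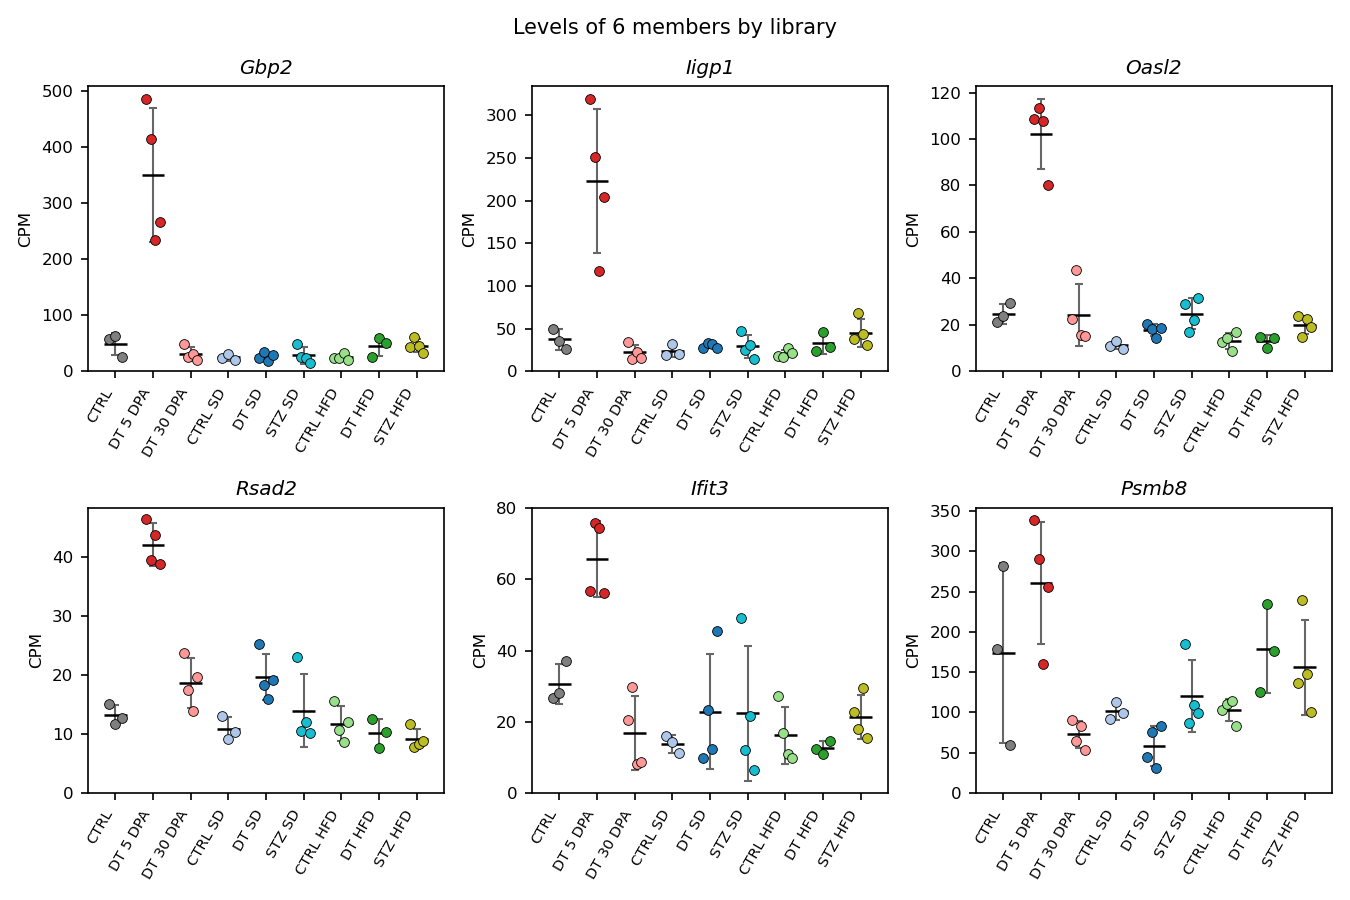
CPM of 6 members in every library of the 9 groups, with the group mean as a bar and the SD as a whisker, on linear axes that start at 0. Gbp2, Iigp1, Oasl2 and Rsad2 have their highest libraries in DT 5 DPA, and Ifit3 is also high in single DT SD and STZ SD libraries. Psmb8 in DT 5 DPA overlaps with CTRL replicates 1 and 2, STZ SD replicate 1, DT HFD and STZ HFD, but not with CTRL HFD.

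The effect of DT itself differed between 5 days and 10 weeks. For the difference between DT 5 DPA against CTRL and DT SD against CTRL SD, 6 of 39 members were called, all higher at 5 days, beside 1.2% of all genes (1.35% in either direction), and all 39 estimates were above 0 with a median of 1.31. The 6 were GTPases: Gbp2 at 2.75 ± 0.54 (adjusted p = 0.00861), Gbp7 at 1.44 ± 0.32 (0.0191), Gbp3 at 1.86 ± 0.43 (0.0223), Iigp1 (2.24), Irgm2 (1.43) and Gbp5 (2.08), all by edgeR's quasi-likelihood test. Gbp2 measured 23.9, 31.6 and 19.4 CPM in CTRL SD. For the counts under other settings that follow, the share of all genes is not given. The count was 1 without CTRL replicate 3, without DT 5 DPA replicate 1, or without the libraries that held enterocyte transcripts, 2 without CTRL SD replicate 2 or replicate 3, 3 without DT SD replicate 3, and 12 by the DESeq2 Wald test.

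Between the diets after DT, the share of members called was close to that of all genes. In DT HFD against DT SD, 8 of 39 members were called higher and 1 lower, beside 15% and 8.46% of all genes (23.5% in either direction), with a median log2 fold change of 0.38 and -0.01 over all genes. By role they were the 3 antigen-processing genes, Irf1, Stat2, Gbp3, Gbp5 and Ifi35. Psmb8 (chr17:34197721-34201454, plus strand) measured 44.2, 75.4, 31.0 and 83.5 CPM in DT SD and 125, 234 and 177 CPM in DT HFD, a log2 fold change of 1.61 ± 0.39 without overlap (adjusted p = 0.00695, edgeR). Psmb9 (chr17:34181987-34187764, minus strand) measured 23.3, 39.5, 14.5 and 47.3 CPM and 65.3, 140.0 and 87.5 CPM, a change of 1.65 ± 0.44 (adjusted p = 0.0111, edgeR). Irf1 (chr11:53770014-53778374, plus strand) measured 40.1, 61.9, 35.5 and 56.0 CPM and 80.4, 134 and 93.7 CPM, a change of 1.09 ± 0.29 (adjusted p = 0.0106, edgeR), and Tap1 changed by 1.59. In each of these, DT HFD replicate 2 was the highest library. The member called lower was Rsad2, at 25.2, 18.3, 15.9 and 19.1 CPM in DT SD and 12.5, 7.64 and 10.3 CPM in DT HFD (-0.95 ± 0.26; adjusted p = 0.0115, edgeR).

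Without DT HFD replicate 2, 0 members were called between these diets, without DT SD replicate 1 or replicate 3 it was 4, with only these groups in the fit 5, and without the libraries that held enterocyte transcripts 14, beside 35% of all genes. The share of all genes is given for the last of these settings only. T and NK cell markers summed to 187 to 402 CPM in DT HFD and 20.7 to 197 CPM in DT SD. B cell markers summed to 3190 to 9782 CPM in DT HFD and 263 to 2065 CPM in DT SD, with 8 of 10 called higher. Dendritic cell markers were called higher in 4 of 8 and beta-cell markers lower in 5 of 8. Acinar cell markers summed to 7231 to 20762 CPM in DT HFD and to 40263 to 175514 CPM in DT SD, without overlap. Their part was not tested. Of the pathway, 9 of 12 signalling genes were called higher, led by Irf2, Irf8 and Tyk2, as were 8 of 15 sensing genes, led by Irf5, Myd88 and Irf3, and 2 of 6 receptors, Ifnlr1 and Ifnar2. Of the further induced genes 15 were higher and 3 lower of 59, with Cmpk2 (-0.84), the neighbour of Rsad2, lower and Samhd1 (1.38) and Tap2 (0.97) higher. The difference of the DT effect between the diets gave 0 of 39 calls (0% of all genes; 7 members at an unadjusted p below 0.05), and that of the STZ effect 0 (0%; 2 members). Without the libraries that held enterocyte transcripts these counts were 1 and 0, where the share of all genes is not given.

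The toxins were also set against each other. In STZ SD against DT SD, 1 member was called higher and 1 lower, beside 2.16% and 0.403% of all genes (2.56% in either direction). Ifi35 (chr11:101448407-101458698, plus strand) measured 44.2, 23.3, 26.1 and 42.8 CPM in STZ SD and 15.8, 18.5, 16.2 and 21.9 CPM in DT SD (0.91 ± 0.19; adjusted p = 0.0228, edgeR), where the 2 high STZ SD libraries, replicates 1 and 4, were those with enterocyte transcripts. Ifi44 measured 6.25, 3.49, 8.72 and 3.02 CPM in STZ SD and 11.6, 17.2, 8.5 and 21.8 CPM in DT SD (-1.47 ± 0.36; adjusted p = 0.0367, edgeR), with overlapping groups. The share of all genes is not given for the counts under other settings that follow. Without STZ SD replicate 1 or 4, or without DT SD replicate 1, 2 or 3, 0 members were called, and without DT SD replicate 4 the call was 1. Without the libraries that held enterocyte transcripts 0 were called in each comparison of the toxins and in STZ HFD against STZ SD. STZ HFD against DT HFD gave 0 calls (0.341% of all genes; 1 member at an unadjusted p below 0.05), and STZ HFD against STZ SD 0 (0.136%; 3 members), where the DESeq2 Wald test called 1 lower.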

How the data were processed

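Every test started from the authors' unnormalized gene counts of 34 libraries, headed total counts in the deposited table. The authors' TPM from the same table served only to rank levels between genes. The deposited RPKM columns, and a deposited column headed CPM that sums to between 0.784 and 2.106 times what CPM sums to and is therefore treated as a score, were not used. Library kits were stranded per the labels' protocols; the sources used here do not give the aligner, counter, strand setting or annotation, and mm10 is named in the submitters' processing notes. Of the members, 6 overlap another gene on the same strand and 13 on the opposite strand (GENCODE M21). A library titled CTRL HFD but labelled DT entered no comparison. The low-count filter was filterByExpr in edgeR 4.0.16 (count minimum 10, total 15). One quasi-likelihood fit with TMM scaling over 33 libraries gave 15 contrasts, called at an adjusted p below 0.05. SE are on the log2 scale. The marker and pathway lists were set by gene name, and the text names only some of their genes. Values per library were given for the called members with the smallest adjusted p per comparison and, for the comparisons among CTRL, DT 5 DPA and DT 30 DPA, per role also those with the largest change; others shown were chosen after their values were seen. The members and lists were chosen with earlier results of these data known. No label says that replicates are separate animals, so p-values measure the spread between these samples. Scripts were tested on simulated data.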

Additional observations from a re-analysis of the deposited data

Results flagged for a closer look

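Among 174 sets of 4 libraries (the mean log2 CPM of a role or of all members, or a named member, in a group), 4 held a library whose gap to the next took more of the range than Dixon's critical value for 4 samples allows, where chance gives about 1 in 20. The oligoadenylate synthetases were highest in CTRL HFD replicate 2, with a gap of 0.833 of the range. The IFIT family was lowest in STZ HFD replicate 4, at 0.936. That library held 683723 CPM of acinar cell markers, beside 7273 to 88006.5 CPM in the rest of its group. Its TMM scaling factor was 0.464, and it was the lowest of its group in 26 of the 39 members. The part of the acinar transcripts in this was not tested. Oasl2 was lowest in DT 5 DPA replicate 4, at 0.856, and Ifi35 highest in STZ HFD replicate 2, at 0.9.

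The DT effect differed between 5 days and 10 weeks on SD by edgeR's test of the difference in 6 members, all GTPases, beside 1.35% of all genes. Leaving out single libraries gave counts of 1 to 9, for which the share of all genes is not given.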

How the results depend on the processing

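The prior degrees of freedom of the fit were 1.63 to 3.11, so each gene's spread rests largely on its own libraries. Leaving out each library in turn gave ranges of called members of 13 to 23 (DT 5 DPA against CTRL), 0 to 20 (DT 30 DPA against CTRL), 38 to 39 (DT 30 DPA against DT 5 DPA), 0 to 3 (STZ SD against CTRL SD), 0 to 13 (DT HFD against DT SD), 0 to 2 (STZ HFD against STZ SD), 0 to 2 (STZ SD against DT SD) and 1 to 9 (DT at 5 days less DT on SD), and 0 in the other 7 comparisons. The DESeq2 Wald test called 7 in DT 30 DPA against CTRL, 12 in DT at 5 days less DT on SD, and 1 each in DT SD and STZ SD against CTRL SD, STZ HFD against CTRL HFD and STZ HFD against STZ SD. Without libraries with enterocyte transcripts the counts were 6 (DT 5 DPA against CTRL), 14 (DT HFD against DT SD), 1 (DT HFD against CTRL HFD), 0 (STZ SD against DT SD), 1 (difference of the DT effect between diets) and 1 (DT at 5 days less DT on SD). With hormone genes out of the scaling, 1 was called in DT 30 DPA against CTRL. With only the compared groups in the fit it was 5 in DT HFD against DT SD and 0 in STZ SD against DT SD, and without a low-count filter 1 in the latter. In DT 5 DPA against CTRL, fitting only these groups ended the calls of Gbp5, Igtp, Irgm1, Ifih1, Zbp1, Dhx58, Irf7 and Stat2. Their adjusted p then lay between 0.0623 and 0.203 (edgeR). The causes were not tested. The share of all genes called moved with the setting too, and it is given only where stated above. In DT 30 DPA against CTRL it was 0.233% in the main fit, 10.5% by the DESeq2 Wald test and 23.7% without CTRL replicate 3. A count without its share therefore describes the members alone. Of 1268 values of members called in a comparison under another setting, 1106 kept their call, 162 lost it and 0 changed sign; among members not called, Ddx58 and Ifi35 turned sign at 5 days without CTRL replicate 3.

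The replicate number as a block gave 23 called in DT 5 DPA against CTRL and 7 in DT HFD against DT SD. Whether the numbers pair the libraries was not settled. In 0 of 10 comparisons with 3 or more pairs was every pair's correlation over 0.1, and 27 of 66 libraries correlated best with their own number. A single weak pair fails that rule, and in DT 5 DPA against CTRL the correlations were 0.084, 0.4 and 0.647 for replicates 1, 2 and 3.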

Other observations

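The library that the labels place in no group, titled CTRL HFD but with DT as its treatment, had a mean of 4.73 log2 CPM over the 39 members. The untreated libraries lay between 3.91 and 5.05, and all libraries of the groups between 3.53 and 6.38.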
